A study of Sorghum bicolor with 12 samples.

Results

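The mRNA response of sorghum shoots to low sulfate was described from 6 RNA-seq libraries, chosen by assay as the RNA libraries among the 12 libraries of the study; the other 6 are ribosome footprint libraries of the same shoots. Seedlings of Sorghum bicolor BTx623, an inbred line, were germinated for 5 days and then grown in vermiculite for 8 days, so that shoots were 13 days past sowing. The low-sulfate group received a nutrient solution with 10 µM sulfate, in which magnesium chloride replaced most of the magnesium sulfate, and the control group received quarter-strength Hoagland's solution with 500 µM sulfate. The series description, however, states 0 µM for deficiency, so the exact supply is uncertain. All plants had 14 h of light at 30 °C and 10 h of dark at 25 °C. Each group had 3 whole shoots, stated to be biological replicates, and every library came from part of the powder of 1 shoot. A whole shoot mixes leaf blades, sheaths, stem and growing point, and in such bulk RNA fewer cells of a type cannot be told apart from less RNA per cell.

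Plants take up sulfur as sulfate through membrane transporters, activate it with ATP, reduce it to sulfide and build it into cysteine, the source of sulfur for methionine and glutathione. In Arabidopsis, shortage of sulfate is known to raise mRNAs for sulfate uptake and reduction and to lower those of some pathways that consume reduced sulfur. The deposited tables list transcripts by ID without gene names, and 0 of the 34210 IDs occur in the gene table used here. Transcripts are therefore given by ID and no role is assigned to any of them, and neither the shoot label nor any pathway was checked against marker genes. The number after "Sobic." in an ID is the chromosome by the naming convention of such IDs.

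RNA libraries held 13995665 to 18475153 counts, and 24385 to 24841 of the listed transcripts had at least 1 count in a library. The 20 most abundant transcripts took 13.9% to 14.8% of the counts of a library, and the ranges of the groups overlapped. Low-sulfate shoot 1 and control shoot 3 stood apart from the other shoots of their groups. Levels in log2 CPM (counts brought to a common library size with TMM factors) differed at least 2-fold for 193 transcripts between low-sulfate shoots 2 and 3, and for 562 and 659 between low-sulfate shoot 1 and these 2 shoots. Between low-sulfate shoot 1 and control shoot 3 the number was 292, the lowest of the 9 pairs that cross the treatments. Their correlation, 0.9895, was the highest of these pairs. By the median absolute log2 difference, however, this pair (0.149) was no closer than low-sulfate shoots 2 and 3 were to control shoot 3 (0.142 and 0.148). The sample descriptions number low-sulfate shoot 1 as 9 and control shoot 3 as 7, next to each other among the numbers used, without saying what the numbers mark. Whether these 2 shoots share a batch or position was not tested beyond a fit given with the alternatives. Control shoots 1 and 2 differed in this way for 193 transcripts, and control shoot 3 differed from them for 267 and 424. The median SD of a transcript over the 3 shoots was 0.128 in the low-sulfate group and 0.129 in the control group on the log2 scale.

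With all 6 shoots, low sulfate was accompanied by a small set of changed mRNAs, most of them more abundant; both the number and the balance of directions depended on single shoots. The filter on low counts kept 20045 of the 34210 listed transcripts, which held 99.9% of the counts. Of these 20045, 127 (0.634%) had a Benjamini-Hochberg adjusted p under 0.05 in edgeR's quasi-likelihood test, here called changed. Of these, 113 rose (0.564%) and 14 fell (0.0698%). Among the risen, 79 were at least 1.5-fold, 42 at least 2-fold, 16 at least 4-fold and 7 at least 8-fold higher, with a median log2 fold change of 0.79. Larger rises had lower control levels, with a median of 6.15 CPM at 4-fold or more and 59.9 CPM under 1.5-fold. The 9 risen transcripts with under 1 CPM in control shoots held the largest rise, 6.11 log2 units, so its size lies near the floor. Among the fallen, 8 were at least 1.5-fold and 3 at least 2-fold lower, none reached 4-fold, and the median was -0.63. Over all transcripts tested the median log2 fold change was -0.01, and 2450 (12.2%) had an unadjusted p under 0.05. DESeq2 called 200 risen and 59 fallen transcripts from the same counts. Higher transcripts were 89.0% of the edgeR calls from all 6 shoots. That share was 42.1% once low-sulfate shoot 1 was left out (214 higher, 294 lower) and 55.6% once control shoot 3 was left out too (1275 higher, 1019 lower). Low-sulfate and control levels did not overlap for 17.6% of all transcripts tested, 9.41% higher and 8.18% lower under low sulfate, so rises and falls were far closer in number by this measure than by the test. Groups of 3 shoots also separate in the absence of any effect, alike in both directions. The near balance therefore does not show that the response itself was balanced.

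**Figure D1:**
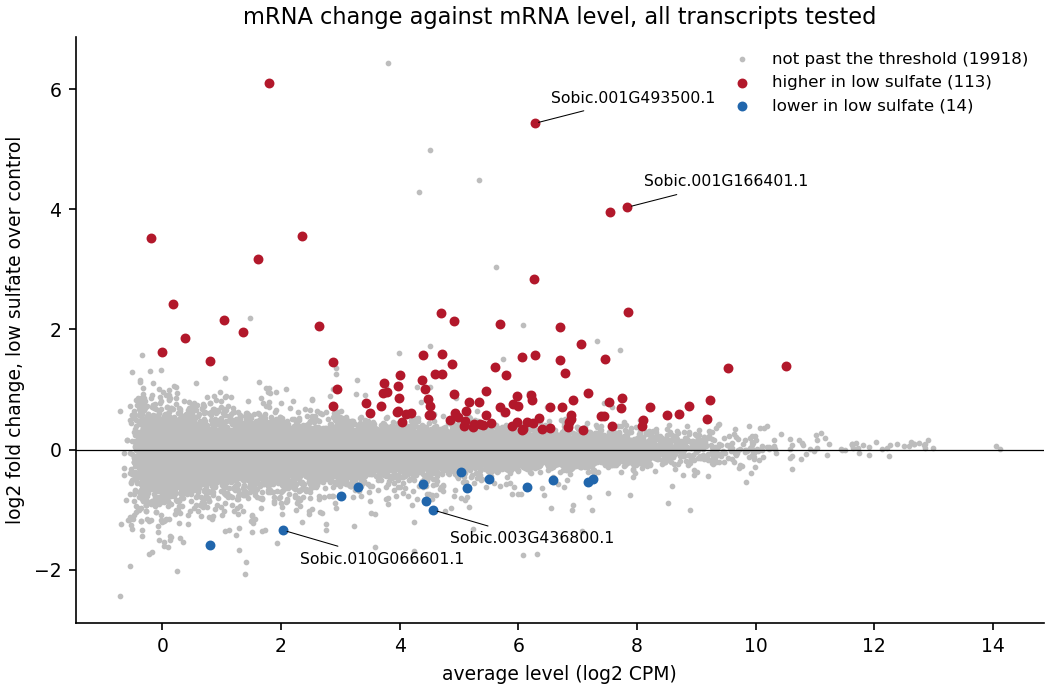
Log2 fold change of mRNA (low sulfate over control) against the average level in log2 CPM for the 20045 transcripts tested; red points rose, blue points fell and grey points missed the threshold. The 113 risen transcripts reach far higher fold changes than the 14 fallen ones, and several grey points with large fold changes lie among them.

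By the rule for naming transcripts without descriptions, the 2 largest rises and the 2 largest falls were named among changed transcripts whose groups did not overlap and whose average log2 CPM was 2 or more. Sobic.001G493500.1, on chromosome 1 with a coding length of 939 bases, had 83.4, 188 and 181 CPM in low-sulfate shoots 1 to 3, against 2.63, 3.85 and 3.92 CPM in control shoots 1 to 3. Low-sulfate shoot 1 had less than either other low-sulfate shoot, and yet stood far above every control shoot. The means were 151 ± 58.6 CPM in low-sulfate shoots and 3.47 ± 0.726 CPM in control shoots (SD, n = 3 each), a log2 fold change of 5.43 (95% interval 4.18 to 6.68, edgeR adjusted p = 0.0295). The control libraries held 37, 59 and 64 counts of it, so the size of the rise rests on a modest number of control counts. It missed the threshold in 5 of the 6 fits that left out 1 shoot (edgeR adjusted p = 0.0725 to 0.261), although its log2 fold change there was 5.24 to 5.53, and passed it without low-sulfate shoot 1.

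Sobic.001G166401.1, also on chromosome 1 and with 1071 coding bases, had 284, 513 and 498 CPM in low-sulfate shoots 1 to 3, against 25.8, 20.8 and 32.3 CPM in control shoots 1 to 3. Again low-sulfate shoot 1 was lowest in its group and the groups were well apart. The log2 fold change was 4.04 (95% interval 3.23 to 4.84, edgeR adjusted p = 0.0122). Without control shoot 1 or 2 the adjusted p was 0.0988 and 0.0946. The listed transcripts just before and after it in ID order rose too. They have coding lengths of 1032 and 1038 bases and log2 fold changes of 2.14 and 1.63. Their control means were 11.1 and 0.416 CPM, and the second reached only 1.31 CPM in low-sulfate shoots, so its rise lies near the floor. How reads that match several transcripts were counted is not given in the sources used here, so the split among these 3 is uncertain if they are near-identical copies.

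Sobic.010G066601.1, on chromosome 10 with 1308 coding bases, had 2.85, 1.58 and 2.41 CPM in low-sulfate shoots 1 to 3, against 4.90, 6.14 and 6.12 CPM in control shoots 1 to 3. Every low-sulfate shoot was below every control shoot, at 29 to 45 counts against 69 to 100. The log2 fold change was -1.34 (95% interval -1.82 to -0.861, edgeR adjusted p = 0.0226), and the transcript missed the threshold in 4 of the 6 fits that left out 1 shoot (edgeR adjusted p = 0.0781 to 0.125). The next listed transcript, with the same coding length of 1308 bases, also fell (log2 fold change -1.59), so these 2 are uncertain in the same way.

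Sobic.003G436800.1, on chromosome 3 with 1134 coding bases, had 16.2, 15.7 and 15.2 CPM in low-sulfate shoots 1 to 3, against 23.1, 35.5 and 35.8 CPM in control shoots 1 to 3. The low-sulfate shoots were nearly alike, and control shoot 1 lay between them and the other control shoots. The log2 fold change was -1.01 (95% interval -1.37 to -0.64, edgeR adjusted p = 0.0375). It missed the threshold without control shoot 2, low-sulfate shoot 2 or low-sulfate shoot 3 (edgeR adjusted p = 0.18 to 0.215).

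**Figure D2:**
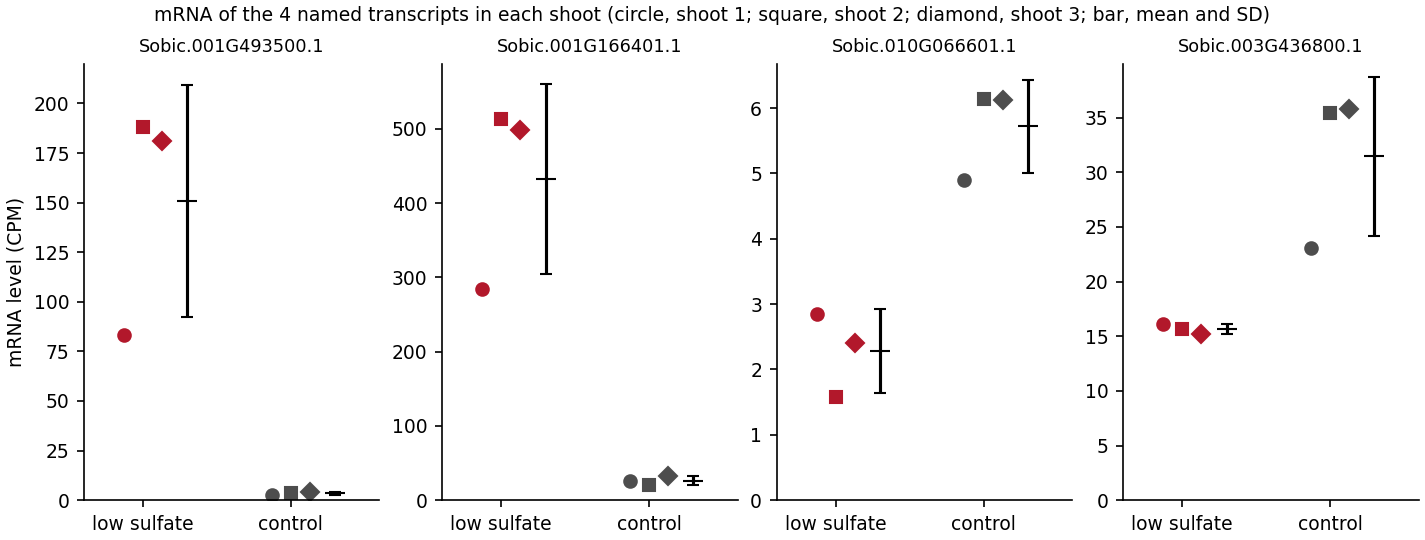
mRNA level in CPM of the 4 named transcripts in each low-sulfate shoot (left in each panel, red) and each control shoot (right, grey), with the mean and SD of the 3 shoots beside the points. In the 2 rising transcripts low-sulfate shoot 1, at 83.4 and 284 CPM, is the lowest of its group, and the groups do not overlap in any panel.

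The changed mRNAs made up little of the mRNA pool. The 113 risen transcripts together took 13661, 16367 and 16464 CPM in low-sulfate shoots 1 to 3, against 7972, 7371 and 8325 CPM in control shoots 1 to 3. This is 1.55% of the counts in low-sulfate shoots and 0.789% in control shoots. These transcripts were chosen for being higher, so their sum carries no test. The gain was uneven: 5 transcripts accounted for 39.9% of the added CPM, 10 for 54.0% and 20 for 70.4%. The 14 fallen transcripts together took 535, 547 and 534 CPM in low-sulfate shoots 1 to 3, against 791, 848 and 754 CPM in control shoots 1 to 3. No transcript had 0 counts in every control library and at least 10 in every low-sulfate library, and 0 were found in the opposite pattern. With the bar at 1 count instead of 10, these patterns held for 39 and 49 transcripts, and with the bar at 5 counts for 1 and 0.

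Risen transcripts had a median coding length of 1038 bases and fallen ones of 1221 bases, against 1164 bases over the 20021 tested transcripts with a listed length. By class, 21 of 3884 transcripts under 600 bases rose (0.541%), 47 of 6480 from 600 to under 1200 bases (0.725%), 39 of 7391 from 1200 to under 2400 bases (0.528%) and 6 of 2266 longer ones (0.265%). These shares were not tested against each other.

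Some changed transcripts lay close together in ID order. Of the 127, 21 had another changed transcript within 5 listed positions on the same chromosome (16.5%), against 3.85% of all transcripts tested. The 21 formed 10 groups, 9 of 2 transcripts and 1 of 3, the last being that of Sobic.001G166401.1. Of the 12 pairs within these groups, 10 rose together, 1 fell together (that of Sobic.010G066601.1) and 1 went in opposite directions. Since 113 of the 127 changed transcripts rose, most pairs of them would rise together wherever they lay. The group of 3 also enters as several pairs. Coding lengths differed by a factor of at most 1.1 in 9 of the 12 pairs, a share that was not counted for other neighbouring transcripts. Whether members of a pair share reads was not tested, so these pairs need not be separate events.

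Among the 113 risen transcripts, low-sulfate shoot 1 was the lowest of the 3 low-sulfate shoots for 74, shoot 2 for 20 and shoot 3 for 19. The median difference from the control mean was 0.72, 0.83 and 0.85 log2 units in low-sulfate shoots 1 to 3. Shoot 1 thus had these rises at a slightly smaller size, as the map of changed transcripts shows, although it took part in the fit that chose them. On the control side, shoot 3 was the highest of its group for 72 of the 113 and shoot 2 the lowest for 80. Such ranks were not counted over all transcripts tested, where low-sulfate shoot 1 and control shoot 3 also stood apart. Whether the ranks are particular to the risen transcripts was therefore not tested. The median differences from the control mean were 0.02, -0.07 and 0.06 in control shoots 1 to 3.

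**Figure D3:**
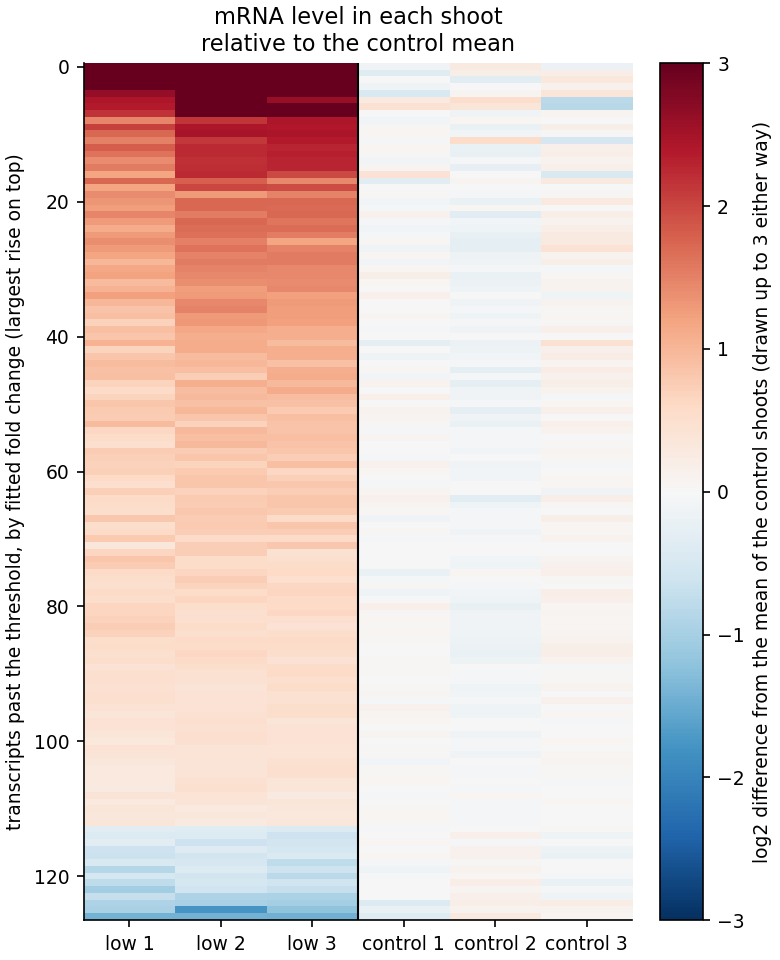
Level of the 127 changed transcripts (rows, ordered by fitted fold change) in each low-sulfate shoot and each control shoot (columns), as the log2 difference from the mean of the 3 control shoots; colours end at 3 in either direction. The 113 risen rows are red in all 3 low-sulfate columns and paler in low-sulfate shoot 1 than in shoots 2 and 3 over most of the upper rows.

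Leaving out the shoots that stand apart raised the count of falls by a larger factor than that of rises. Without low-sulfate shoot 1, 508 of 20213 transcripts tested were called (2.51%), 214 higher (1.06%) and 294 lower (1.45%), and all 127 transcripts called with 6 shoots were among them. Without control shoot 3, 460 were called (2.28%), 273 higher (1.35%) and 187 lower (0.925%), 115 of the 127 among them. Without both, 2294 were called (11.5%), 1275 higher (6.36%) and 1019 lower (5.09%), 126 of the 127 among them, at a median absolute log2 fold change of 0.39, against 0.77 for the 127. When 1 shoot of each group was left out in the other 8 combinations, 4 to 410 transcripts were called, so 2294 was the highest of 9 such counts. Its 2 shoots were picked because earlier results of these data showed them close to each other across the treatments. That rank therefore carries no test. Leaving out low-sulfate shoot 2 or 3 gave 43 and 57 calls (0.212% and 0.279%), and leaving out control shoot 1 or 2 gave 35 and 46 (0.171% and 0.226%), of which 1 to 3 were lower in each fit. Of the 127 transcripts, 31 stayed past the threshold in all 6 fits with 1 shoot left out. These were 3 of the 16 that rose at least 4-fold, 15 of the 26 that rose 2- to 4-fold, 12 of the 37 that rose 1.5- to 2-fold, 0 of the 34 with smaller rises and 1 of the 14 that fell.

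**Figure D4:**
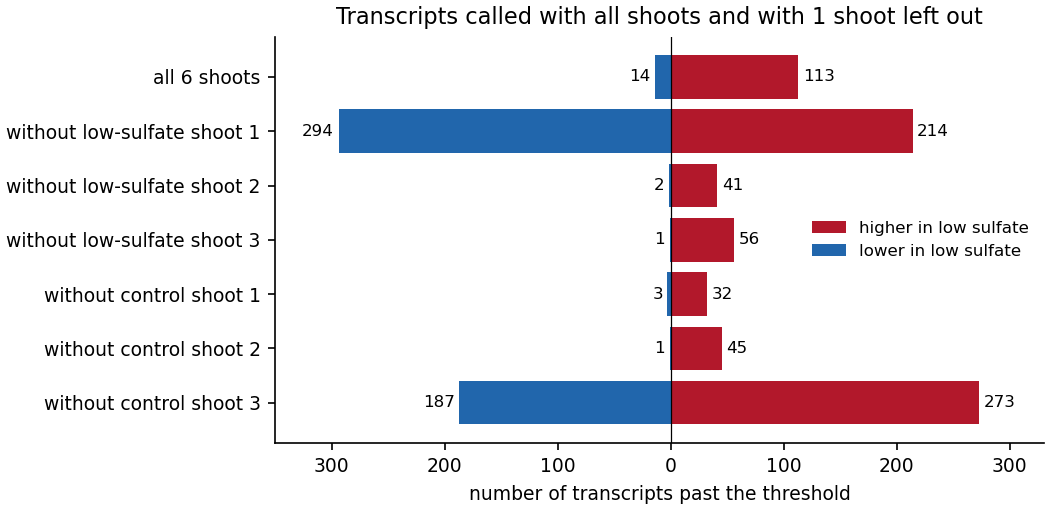
Number of transcripts past the adjusted p threshold of 0.05 with all 6 shoots and with 1 shoot left out; bars to the right are higher and bars to the left are lower in low-sulfate shoots. Falls number 294 without low-sulfate shoot 1 and 187 without control shoot 3, against 14 with all shoots and 1 to 3 in the other fits.

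A shoot left out of a fit gives values that took no part in its calls, although the shoots on the other side are shared. Of the transcripts called higher without low-sulfate shoot 1, 191 of 210 with a level in all shoots were also above every control shoot in shoot 1 (91.0%), against 30.0% of all transcripts tested. The median difference from the control mean was 0.49 log2 units in shoot 1 and 0.64 in shoots 2 and 3. Of those called lower, 125 of 293 were also below every control shoot in shoot 1 (42.7%), against 29.5% of all tested. Here the median difference was -0.12 in shoot 1 and -0.91 in shoots 2 and 3. Both the rises and the falls were chosen on shoots 2 and 3, which enlarges the values of those shoots and not that of shoot 1, so the medians are a description and not a like comparison. In the same way, 234 of 272 transcripts called higher without control shoot 3 (86.0%) and 75 of 187 called lower (40.1%) had control shoot 3 outside the range of the low-sulfate shoots on the called side, against 25.6% and 24.1% of all tested. Without any one of the other 4 shoots, 32 to 56 transcripts were called higher and 1 to 3 lower per fit. In each of them the left-out shoot lay on the called side of every shoot of the other group, against 24.9% to 31.9% of all tested. All of them were also called with every shoot in the fit, except among the falls without control shoot 1 (2 of 3). These short lists thus hold almost only transcripts that pass with the left-out shoot included. Their share is therefore not a like comparison with those of the larger lists.

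Ribosome footprints, the mRNA fragments held by ribosomes, were counted from the rest of the same powder and give a second library of each shoot. Over the 266 transcripts called lower in mRNA without low-sulfate shoot 1 that had a footprint level, the median footprint difference from the mean of control shoots 1 and 2 was -0.06 in low-sulfate shoot 1, -0.66 in shoot 2 and -0.73 in shoot 3. In mRNA the corresponding values, over the 293 such transcripts with an mRNA level, were -0.09, -0.76 and -0.93. Low-sulfate shoot 1 lay near the control shoots for this set in both libraries, a set chosen without it. The 187 transcripts called lower without control shoot 3 showed another order of the shoots. In mRNA the values were -0.45, -0.36 and -0.40 in low-sulfate shoots 1 to 3 and -0.36 in control shoot 3. In footprints, over the 181 of them with a footprint level, they were -0.45, -0.29 and -0.36 in low-sulfate shoots 1 to 3 and -0.44 in control shoot 3. Shoot 1 thus had the largest fall of the low-sulfate shoots in that set, and control shoot 3, which took no part in its choice, lay among them.

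**Figure D5:**
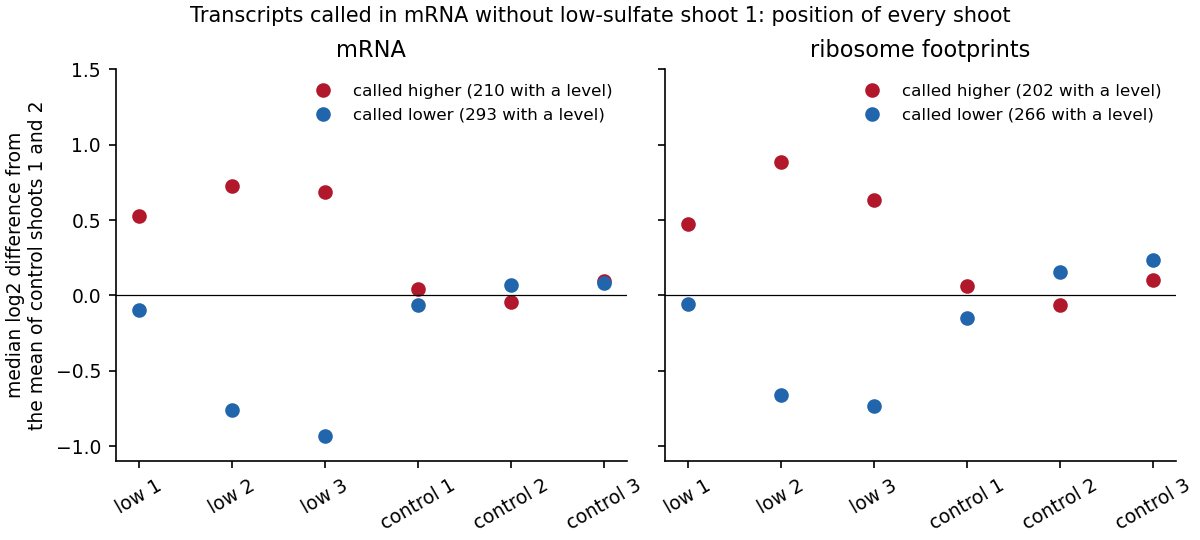
Median log2 difference of each shoot from the mean of control shoots 1 and 2, for mRNA (left panel) and ribosome footprints (right panel), over transcripts called higher (red) or lower (blue) in mRNA without low-sulfate shoot 1. For the called-lower transcripts low-sulfate shoot 1 lies at -0.09 in mRNA and -0.06 in footprints, whereas shoots 2 and 3 lie at or below -0.66.

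Many fitted falls of at least 2-fold missed the threshold. With all 6 shoots, 104 transcripts had a fitted log2 fold change of -1 or less, of which 3 passed the threshold, and 79 had one of 1 or more, of which 42 passed. In the 101 falls that missed it, the median difference from the control mean was -0.58 in low-sulfate shoot 1, -1.45 in shoot 2 and -1.48 in shoot 3. Low-sulfate shoot 1 had the smallest fall in 76 of them, and in 25 it was not below every control shoot, against 2 for shoot 2 and 4 for shoot 3. Over all transcripts tested, low-sulfate shoots 1 to 3 were below every control shoot for 29.5%, 27.5% and 29.0%. How often shoot 1 was the least changed over all transcripts was not counted, and it stood apart from shoots 2 and 3 there too. In the 37 rises of this size that missed it, the medians were 1.13, 1.25 and 1.32 in low-sulfate shoots 1 to 3, and shoot 1 had the smallest rise in 20. These falls and rises had low median control levels, 1.73 and 2.11 CPM, and median SEs of 0.402 and 0.424. Changed falls and rises had medians of 34.2 and 29.6 CPM and SEs of 0.106 and 0.1. Without low-sulfate shoot 1, 42 of the 101 falls and 15 of the 37 rises were called. Both sets were chosen for a large change that missed the test, so a large spread among shoots is built into them.

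Most changed mRNAs had a footprint difference in the same direction. Over all 16420 transcripts tested in both assays this held for 65.3%. Of 16514 transcripts tested in footprints, 37 were called (0.224%). Among mRNAs that rose at least 4-fold, 15 of 16 were tested in footprints, all 15 had higher footprints and 12 were called. Over these 15 the median rise was 3.14 log2 units for footprints and 2.42 for mRNA. Among those that rose 2- to 4-fold, 23 of 26 were tested, all 23 were higher and 12 were called, with medians of 1.27 in footprints and 1.37 in mRNA. Of the 37 that rose 1.5- to 2-fold, 36 were tested, 35 were higher and 5 were called. Smaller rises, 34 in all, were higher in 33 cases with 0 called, and 12 of the 14 fallen mRNAs were tested, all 12 lower with 0 called. For the 1.5- to 2-fold rises the median SE was 0.176 log2 units for footprints and 0.098 for mRNA over the same class. Since mRNA and footprints came from the same shoots, a difference between shoots enters both.

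Of the named transcripts, Sobic.001G493500.1 had 30.0, 91.8 and 81.3 footprint CPM in low-sulfate shoots 1 to 3, against 1.56, 1.72 and 2.36 in control shoots 1 to 3. The footprint log2 fold change was 5.17 (edgeR adjusted p = 0.00145). Sobic.001G166401.1 had 127, 321 and 281 footprint CPM in low-sulfate shoots 1 to 3, against 18.8, 12.9 and 19.4 in control shoots 1 to 3. Its footprint log2 fold change was 3.84 (edgeR adjusted p = 0.00145). In both, low-sulfate shoot 1 was again the lowest of its group, as in mRNA. Footprints of Sobic.003G436800.1 stood at 29.8, 26.4 and 12.9 CPM in low-sulfate shoots 1 to 3, against 36.2, 49.95 and 34.8 CPM in control shoots 1 to 3, without overlap (log2 fold change -0.82, edgeR adjusted p = 0.637). Sobic.010G066601.1 had 0.328, 0.602 and 0.251 footprint CPM in low-sulfate shoots 1 to 3, against 1.12, 1.80 and 0.788 CPM in control shoots 1 to 3, too few counts to pass the filter.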

How the data were processed

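The authors deposited raw counts per transcript for 34210 transcripts in RNA-seq and, as P sites summed over coding sequence, for footprints, both with no normalization as far as the values show. Per the labels' protocols, 100 mg of powder from a 2 g shoot went to RNA-seq. Bowtie2 and STAR appear in the submitters' processing notes without roles; no source used here gives the build, annotation or counting program. Column names are shared by the tables, so each table's content decided its assay. The deposited footprint table also gives a coding length per transcript, which holds no UTRs, as another column. The test was that of edgeR 4.0.16 under R 4.3.3 (TMM factors, filterByExpr with a minimum count of 10 and minimum total of 15, robust quasi-likelihood fit, treatment as the sole term, Benjamini-Hochberg adjustment over all transcripts tested), separately for RNA and footprints. DESeq2 1.42.0 and limma 3.58.1 served as alternatives. Each p-value sets the difference between groups against the spread between shoots, 3 a side or fewer where shoots were left out. The estimate of that spread borrows from other transcripts. The code was tested on simulated data. The shoots, lists and rules were chosen with earlier results of these data known. Gene lists, cell type markers and promoter motifs could not be applied, since 0 IDs matched the gene table (assembly Sorghum_bicolor_NCBIv3). Without descriptions at most 2 rising and 2 falling IDs are named, by the rule stated with them.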

Additional observations from a re-analysis of the deposited data

How the results depend on the processing

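Of the 127 calls in RNA, the count was 259 with DESeq2, 200 with no low-count filter, 45 with a 2-fold threshold, 294 (168 higher, 126 lower, with 74 of the 127 kept and 53 lost) with pairs of label numbers as a batch term and 2294 without low-sulfate shoot 1 and control shoot 3 together. The sample descriptions number the low-sulfate shoots 9, 13 and 15 and the control shoots 3, 1 and 7, with no meaning given; only the pair 7 and 9, the shoots that stand apart, holds both treatments, so the batch term rests on 1 shoot of each. Leaving out 1 shoot gave 35 to 508 calls and leaving out 1 of each group gave down to 4. All 9 such pairs were chosen with results of these data known. The pair of low-sulfate shoot 1 and control shoot 3 was planned from earlier results, and the other 8 were added later. The 37 footprint calls became 95 with DESeq2, 17 with at least 50 counts in each group mean, 4 with the batch term, 77 without both shoots, and 11 to 70 with 1 shoot left out. The 2-fold and 50-count settings remove transcripts by construction; for the rest the cause was not tested. Limma-voom, other scaling factors and leaving out the 20 most abundant transcripts kept both counts within 1.5 times. No pairing by shared replicate number was evident (correlations of deviations -0.129, 0.139 and -0.0481 in RNA). The highest correlation, 0.181, was that of low-sulfate shoot 1 with control shoot 3. Deviations within a group of 3 constrain one another, so these values do not test pairing. The replicate block gave 95 RNA calls, with 80 of the 127 kept and 47 lost, and 30 footprint calls. No named transcript changed direction under 16 or 17 alternatives; since their groups did not overlap, leaving out a shoot could not turn it. Sobic.001G493500.1 missed the threshold under 6 of its 17 alternatives and Sobic.001G166401.1 under 2 of 17. The fallen Sobic.010G066601.1 missed it under 6 of 16 and Sobic.003G436800.1 under 7 of 17. Limma-voom was among these for the first and last (adjusted p = 0.0884 and 0.0678), the block for both fallen ones (0.0848 and 0.0554). Depth and spread gave 95% intervals with a median half-width of 0.265 log2 units for RNA and 0.442 for footprints. Not run were the gene list, marker and motif descriptions, since no ID matched a description.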
